A study of Mus musculus with 2 samples.

Results

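The step between 2 erythroid classes of mouse bone marrow progenitors was described within each of 2 single-cell RNA libraries: the Hba-a2 class was set against the Car1 class. Members were taken by the cell class in the deposited cell annotation, where the classes are named by a gene, and 5825 of 14795 cells belonged to them. The library labelled Runx1 KO held 318 Hba-a2 and 3003 Car1 cells of 7889, and the Control library held 294 Hba-a2 and 2210 Car1 cells of 6906. Both libraries came from C57BL/6 mice, from hind limb marrow. The sorted cells carried c-Kit and lacked Sca1 and lineage markers, which keeps progenitors already set on a myeloid, erythroid or megakaryocyte fate. The Runx1 KO genotype is labelled no further in the sources used here, and neither the number of its mice, the deleted part of Runx1 nor any Cre driver is given. Control was a pool of the marrow of 1 Runx1f/f and 1 Runx1f/- mouse, so 1 of its 2 mice carried a Runx1- allele. Ages are not given, 1 label field speaks of embryos where the tissue and extraction fields name marrow, and the wild-type library of the annotation was read as Control.

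Red cell formation runs through progenitors that leave the multipotent state, respond to erythropoietin and then take in iron, build heme and make globin, while they divide a few more times. The transcription factors Gata1 and Klf1 drive this program, and Gata2 and Meis1 belong to the earlier progenitor state that is shut off along the way. Carbonic anhydrase 1, the enzyme encoded by Car1, is an early erythroid gene, and Hba-a2 encodes the alpha chain of adult hemoglobin. Runx1 encodes a transcription factor that is needed for platelet, lymphoid and myeloid development.

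With all cells, Hba-a1 and Hbb-bs were the most gained genes, and the alpha globin pair is nearly the same in sequence. The sequences before these and other genes that were higher in Hba-a2 are therefore shown first. They are the 250 bases before RefSeq's gene start on GRCm38.p6, read 5′ to 3′ on the gene's strand. They lie at chr11:32283422-32283671 (plus) for Hba-a1, chr11:32296242-32296491 (plus) for Hba-a2, chr7:103827929-103828178 (minus) for Hbb-bs and chr7:103813924-103814173 (minus) for Hbb-bt. Rhd, a gained Rhesus membrane gene, lies at chr4:134864286-134864535 (plus), and Epor, the erythropoietin receptor gene, at chr9:21963577-21963826 (minus). Capitals mark AGATAA (a form of the letters GATA factors bind), CCACCC (a form of the core that Klf factors bind) and CCAAT. Each was searched on both strands, so that a match on the other strand is printed as its reverse complement. Other spellings were not searched and stay in small letters, such as tgataa in Hba-a1 and Hba-a2 or ccacaccc in Hbb-bs.
Hba-a1: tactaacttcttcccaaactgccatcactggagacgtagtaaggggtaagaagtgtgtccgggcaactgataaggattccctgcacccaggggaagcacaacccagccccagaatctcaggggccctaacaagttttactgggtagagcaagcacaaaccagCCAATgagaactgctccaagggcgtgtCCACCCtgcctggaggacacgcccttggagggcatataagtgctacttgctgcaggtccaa
Hba-a2: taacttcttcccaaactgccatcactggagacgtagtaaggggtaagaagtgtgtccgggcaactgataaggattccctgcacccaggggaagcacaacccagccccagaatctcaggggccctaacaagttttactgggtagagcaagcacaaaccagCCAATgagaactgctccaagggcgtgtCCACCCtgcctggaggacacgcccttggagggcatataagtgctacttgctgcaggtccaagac
Hbb-bs: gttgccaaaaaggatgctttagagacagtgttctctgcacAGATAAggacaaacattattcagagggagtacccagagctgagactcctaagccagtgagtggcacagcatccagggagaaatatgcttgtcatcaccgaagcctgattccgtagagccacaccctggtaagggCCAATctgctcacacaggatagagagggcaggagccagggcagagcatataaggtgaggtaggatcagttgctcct
Hbb-bt: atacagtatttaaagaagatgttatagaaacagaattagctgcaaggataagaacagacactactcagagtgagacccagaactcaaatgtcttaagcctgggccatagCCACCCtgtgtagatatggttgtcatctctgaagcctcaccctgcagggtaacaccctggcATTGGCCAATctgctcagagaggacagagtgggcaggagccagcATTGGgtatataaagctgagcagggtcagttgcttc
Rhd: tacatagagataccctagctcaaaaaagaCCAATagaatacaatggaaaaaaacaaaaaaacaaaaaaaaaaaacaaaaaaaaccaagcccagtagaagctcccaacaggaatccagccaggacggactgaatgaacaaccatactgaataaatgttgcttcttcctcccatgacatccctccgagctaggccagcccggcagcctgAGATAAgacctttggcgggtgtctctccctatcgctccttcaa
Epor: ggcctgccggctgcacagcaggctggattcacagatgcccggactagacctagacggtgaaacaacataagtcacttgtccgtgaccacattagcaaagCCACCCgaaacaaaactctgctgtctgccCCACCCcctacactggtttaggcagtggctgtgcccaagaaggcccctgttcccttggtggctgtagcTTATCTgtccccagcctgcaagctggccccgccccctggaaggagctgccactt

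The stretches were compared without gaps, at the best single shift. With a shift of 3 bases the Hba-a1 and Hba-a2 stretches were the same at 247 of 247 positions, whereas Hbb-bs and Hbb-bt matched at 127 of 249. An inserted or missing base puts all that follows out of line, so the count for the beta pair can understate its likeness. The beta pair also differed in these exact letters: Hbb-bs held AGATAA and no CCACCC, and Hbb-bt held CCACCC and no AGATAA. Near spellings were not compared. Over the genes with a single RefSeq promoter, CCACCC stood in 50.8% of 63 promoters of genes gained in both libraries (at least 2-fold, as described with the values), 42.8% of 173 of genes lost in both and 30.9% of 3289 of all measured genes. AGATAA stood in 4.76%, 10.4% and 5.41% of the same promoters, and CCAAT in 44.4%, 30.6% and 37.4%. Over all 32841 promoters of the table the shares were 28.1% for CCACCC, 9.99% for AGATAA and 33.9% for CCAAT. These are counts of letters in a window of 250 bases and say nothing of binding.

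Values are unique molecular identifiers (UMIs, molecules counted after removal of copies) summed over the cells of a class in a library and given per 1000000 UMIs of that sum (CPM). A gene's step is log2 of its CPM in Hba-a2 over its CPM in Car1 within 1 library, after adding 10 CPM to both. A gene was measured when it reached 30 CPM in 1 of the 4 sums and 100 UMIs over the 4, which 5103 of 31053 genes did. It was called gained or lost when the step was at least 2-fold. Each genotype had 1 library, so there is no replicate, no test and no p-value; intervals of 95% cover counting error only. The labels do not say how the authors assigned cells to the classes. Genes used for that differ between the classes by construction, so all steps are descriptions.

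The 4 sums held 10892715 UMIs (Hba-a2) and 49700115 UMIs (Car1) in the KO-labelled library and 13384263 (Hba-a2) and 44943983 (Car1) in Control. Hba-a2 cells were deeper than Car1 cells, with median UMIs of 37146 against 14621 in the KO-labelled library and 51294.5 against 15393.5 in Control. Cells with at least 10% mitochondrial UMIs were 13.5% of Hba-a2 and 3.63% of Car1 cells in the KO-labelled library, and 3.74% and 2.81% in Control. The libraries shared 13 cell barcodes in all and 0 within these classes. Runx1 transcripts were more abundant in the library labelled Runx1 KO, with 86.6 CPM against 35.9 CPM in Control in Hba-a2 (2.41-fold, 2.16 to 2.69) and 310 against 116 CPM in Car1 (2.67-fold, 2.58 to 2.75). UMIs from the 3′ end do not check a deletion elsewhere in the gene, so the KO-labelled library is called by its label throughout.

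By marker lists, the Car1 class did not hold erythroid-leaning cells alone, and the libraries differed in this measure. In the KO-labelled library 1561 of 3003 Car1 cells (52.0%) had more UMIs of another cell type's marker list than of the erythroid list, and in Control 392 of 2210 (17.7%). The list was that of megakaryocytes in 1520 KO-labelled and 231 Control cells, and that of multipotent progenitors in 467 and 152, where a cell can count under several lists. Among Hba-a2 cells, 9 KO-labelled (2.83%) and 2 Control cells (0.680%) were of this kind. Results below are therefore also given without these cells. Leaving them out uses the marker genes themselves, so the marker genes' own steps are set in part by that choice. The erythroid list includes the gene Car1, with 261 CPM in KO-labelled and 2034 CPM in Control Car1 cells, of list sums of 2022 and 4693 CPM. A cell low in UMIs of this gene is counted more readily by the rule, and the gene's part in the 52.0% and 17.7% was not tested.

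The Hba-a2 class carried erythroid markers at a high level, and late ones were near 0. The 19 erythroid markers in the gene table summed to 7900 CPM in Hba-a2 against 2022 CPM in Car1 in the KO-labelled library, and to 10400 against 4693 CPM in Control. Of the 17 measured, 11 were gained in both libraries (64.7%, against 1.98% of all measured genes). Alas2, the first heme enzyme of late erythroid cells, had 7.44 CPM in KO-labelled Hba-a2 and 0.822 CPM in Control Hba-a2, and Slc4a1, the band 3 anion exchanger, 14.0 and 1.79 CPM. The 15 megakaryocyte markers summed to 327 CPM in Hba-a2 against 1484 in Car1 in the KO-labelled library, with none of them at 0 UMIs in either. In Control they summed to 44.8 against 459 CPM, with Gp1bb, Gp6, Ppbp, Clec1b, Thbs1 and Selp at 0 UMIs in Hba-a2. The 14 neutrophil markers summed to 1217 CPM in Hba-a2 against 451 in Car1 in the KO-labelled library, and to 295 against 502 CPM in Control.

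The remaining marker lists were low in Hba-a2. Multipotent progenitor markers summed to 29.7 against 314 CPM (Hba-a2 against Car1) in the KO-labelled library and to 15.2 against 237 CPM in Control, with Mecom and Procr at 0 UMIs in Hba-a2 of both. Basophil and mast cell markers summed to 10.1 against 104 CPM in the KO-labelled library and to 28.0 against 216 CPM in Control, and the lists of mature lymphocytes, monocytes and macrophages to at most 57.6 CPM in Hba-a2. The lists of eosinophils, lymphoid progenitors and stroma summed to at most 3.51 CPM there. Their part in the steps below was not tested, beyond the values given without the cells they lead.

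Hba-a2 cells made up 9.58% (8.60 to 10.6) of the cells of both classes in the KO-labelled library and 11.7% (10.5 to 13.1) in Control. Without the cells led by another lineage's markers the order was the other way round, at 17.6% in the KO-labelled library and 13.8% in Control. That choice leaves out more Car1 cells in the KO-labelled library, so this order is set in part by it.

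More genes were lost than gained along the step. Most genes, including the many with steps near the median, had similar steps in the libraries, while the gained genes as a set differed, as given below. In the KO-labelled library 192 genes were gained (3.76% of those measured) and 381 lost (7.47%), and in Control 112 were gained (2.19%) and 348 lost (6.82%). In both libraries at once, 101 genes were gained (1.98%) and 307 lost (6.02%). The median step over all measured genes was 0.03 in the KO-labelled library and 0.04 in Control. Across genes, which are not independent, the steps of the libraries had a Pearson correlation of 0.937, and 97.3% of genes had steps within 1.5-fold of each other. No gene was gained in 1 library and lost in the other. Without the other-lineage cells, 85 genes were gained in both (1.71% of 4960) and 243 lost (4.9%); 80 of the 101 gained genes and 230 of the 307 lost genes were among them.

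**Figure D1:**
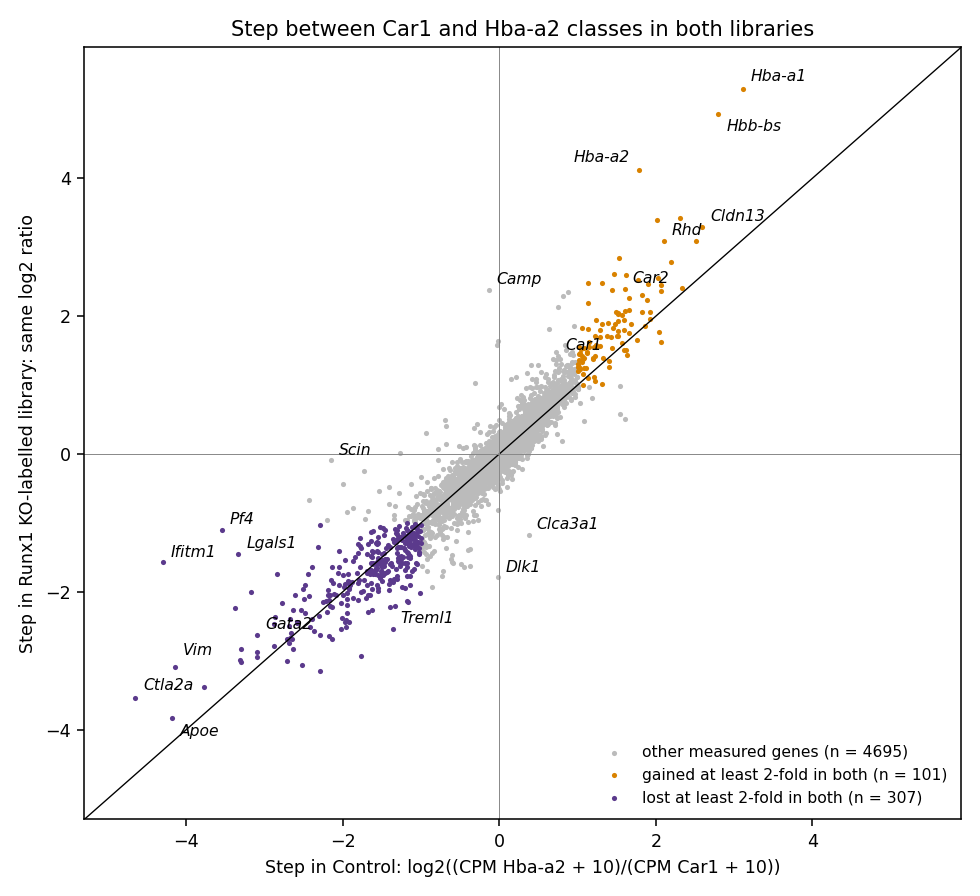
Step of each of the 5103 measured genes in the library labelled Runx1 KO (vertical axis) and in Control (horizontal axis), as log2 ratios of Hba-a2 over Car1 CPM with 10 CPM added; the diagonal marks equal steps. Most of the 101 gained genes lie above the diagonal and the 307 lost genes on both sides of it, Hba-a1, Hbb-bs and Hba-a2 stand above it at the top, and Ifitm1, Pf4, Scin and Lgals1 stand above it on the left.

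Cells of the Hba-a2 class held more RNA, so a gene can be lost as a share of UMIs while its molecules per cell stay. Mean UMIs per cell were 2.07 times as high in Hba-a2 as in Car1 in the KO-labelled library and 2.24 times as high in Control. Of the 307 lost genes, 301 were also lower in UMIs per cell in both libraries. A loss of at least 2-fold as a share leaves little room for another outcome at these ratios of mean UMIs. The count is thus nearly fixed by the call and is no separate check, and the share over all measured genes was not counted. When each cell was thinned to 5000 UMIs, the median number of genes detected was 1903 in Hba-a2 against 1947 in Car1 in the KO-labelled library, and 1914 against 1943 in Control. Thinning left out 24 Hba-a2 and 82 Car1 cells in the KO-labelled library and 22 and 113 in Control.

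With all cells, all 4 measured globin genes were gained in both libraries, by more in the KO-labelled one. Hba-a1 and Hbb-bs were then the most gained of all measured genes in each. Hba-a1 (chr11:32283511-32284465, plus strand, protein coding) had 555 CPM in Hba-a2 against 4.35 CPM in Car1 in the KO-labelled library, a 128-fold ratio (111 to 147). In Control it had 107 against 3.52 CPM, a 30.5-fold ratio (25.8 to 36.1). Hba-a2, the near copy of Hba-a1, had 192 against 1.59 CPM in the KO-labelled library and 28.1 against 1.02 CPM in Control. UMIs may be split between such copies by the authors' counting, so only their common course is described.

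Of the adult beta globin pair, Hbb-bs had 876 CPM in Hba-a2 against 19.0 in Car1 (46.2-fold, 43.2 to 49.4) in the KO-labelled library and 99.1 against 5.67 CPM (17.5-fold, 15.3 to 20.04) in Control. Hbb-bt had 423 against 31.1 CPM in the KO-labelled library and 57.6 against 6.70 CPM in Control. Each of the 4 genes was higher in the KO-labelled library than in Control in both classes, and by more in Hba-a2. Over the 4 genes the ratio of KO-labelled to Control ran between 5.18 (Hba-a1) and 8.84 (Hbb-bs) in Hba-a2, and between 1.24 (Hba-a1) and 4.65 (Hbb-bt) in Car1. The median step of the 4 was 4.53 in the KO-labelled library and 2.41 in Control, and without other-lineage cells it was 4.59 and 2.25. The embryonic gene Hbb-y had 0 CPM in KO-labelled Hba-a2 and 0.0747 CPM in Control Hba-a2.

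The globin level of the Hba-a2 class rested on few cells. Summed over the globin genes it was 2045 CPM in Hba-a2 against 56.1 CPM in Car1 in the KO-labelled library, and 292 against 16.9 CPM in Control. The 5% of cells with most globin UMIs held 71.9% of all globin UMIs in KO-labelled Hba-a2 and 64.1% in Control Hba-a2. The median Hba-a2 cell had 6.5 globin UMIs in the KO-labelled library and 3 in Control, and the highest cell 6855 and 1079. Without those cells, the Hba-a2 class had 605 CPM in the KO-labelled library and 111 CPM in Control, and the median step of the 4 genes was 2.64 in the KO-labelled library and 1.08 in Control. Over all settings tried, the lowest Control step was 0.77 for Hbb-bs and 0.98 for Hbb-bt, both under 2-fold. Their call as gained in Control thus did not hold in every setting. Cells with at least 1% globin UMIs numbered 9 in KO-labelled Hba-a2 (2.83%) and 2 in Control Hba-a2 (0.680%), with median total UMIs of 18340 and 18844, under the medians of the other Hba-a2 cells, 37346 and 51359.5.

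Some globin UMIs were present, at a lower level, in each of the other 5 of the 6 classes with at least 200 cells. At least 1 globin UMI was found in 78.6% (73.7 to 83.0) of KO-labelled and 75.9% (70.5 to 80.6) of Control Hba-a2 cells, and in 27.8% and 15.1% of Car1 cells. In the class Gstm1/CD63, where neutrophil markers prevail and globin should be lacking, it was 15.4% in the KO-labelled library and 5.96% in Control, at median depths of 26825 and 28810 UMIs. Globin summed to 8.07 and 4.21 CPM there, to 80.1 and 17.9 CPM in the CD34 class and to 52.0 and 6.86 CPM in the Pf4 class. The summed Car1 levels of 56.1 and 16.9 CPM thus lay under those of CD34, while Hba-a1 (4.35 and 3.52 CPM) and Hbb-bs (19.0 and 5.67 CPM) were higher in Car1 than in the other 4 of these classes apart from Hba-a2. The next highest of the 4 had 2.63 and 1.02 CPM of Hba-a1 and 12.5 and 4.18 CPM of Hbb-bs. The globin ratios depend on how much of the Car1 level is background, which was not tested. At 5000 UMIs per cell, Hba-a1 was detected in 45.9% of KO-labelled and 23.9% of Control Hba-a2 cells, against 1.5% and 0.9% of Car1 cells and 0.3% and 0.5% of Gstm1/CD63 cells.

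**Figure D2:**
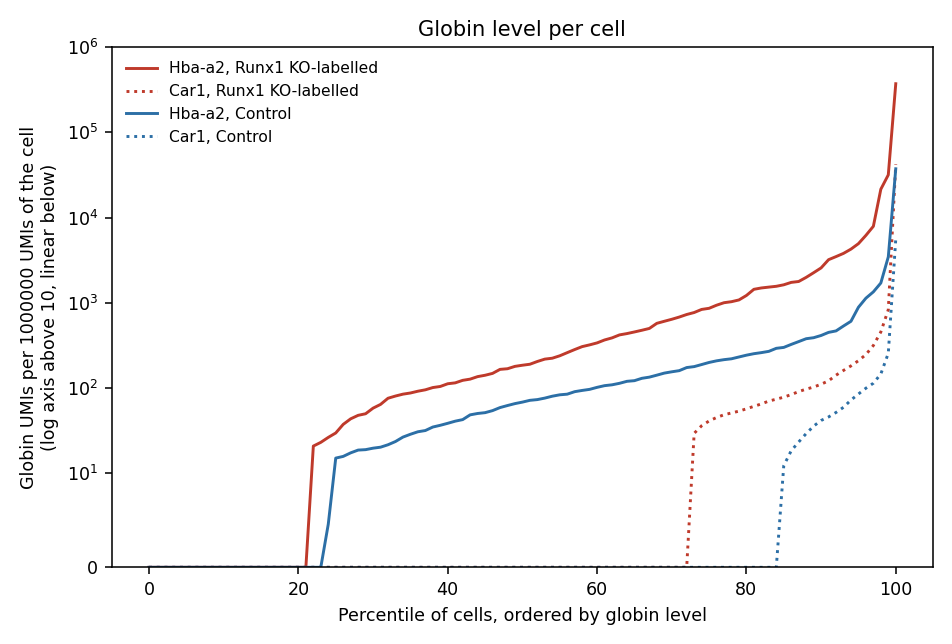
Globin UMIs per 1000000 UMIs of each cell (vertical axis, logarithmic above 10 and linear below) by percentile of cells (horizontal axis), for Hba-a2 (solid) and Car1 (dotted) cells of the KO-labelled library (red) and Control (blue). The KO-labelled Hba-a2 line lies above the Control line from the point where cells have globin UMIs, with medians of 184 and 67.7, and both rise steeply over the last 5% of cells.

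Heme synthesis genes were higher in Hba-a2 throughout, with steps at least as large in the KO-labelled library for 12 of 12. Of 12 measured members of 14 on the list, 10 were gained in the KO-labelled library (83.3%, against 3.76% of all measured genes), 6 in Control (50%, against 2.19%), 6 in both (50%, against 1.98%) and none was lost. The median step was 1.54 in the KO-labelled library and 1.04 in Control, against 0.03 and 0.04 over all genes. Cpox, coproporphyrinogen oxidase, had 514 CPM in Hba-a2 against 162 CPM in Car1 in the KO-labelled library and 343 against 109 CPM in Control, with steps of 1.61 and 1.57. Without other-lineage cells the steps of Cpox were 1.03 in the KO-labelled library and 1.43 in Control, so that it was the 1 of 12 with a smaller step in the KO-labelled library. Fech, which inserts the iron into heme, had steps of 1.72 and 1.38, and Tmem14c, which carries heme precursors in mitochondria, 1.69 and 1.43. Clpx, a mitochondrial chaperone, had the narrowest step, 0.29 in each. Without other-lineage cells the medians were 1.10 in the KO-labelled library and 0.95 in Control.

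Iron genes had smaller median steps than heme genes. Of 18 measured members, 3 were gained in both libraries (16.7%, against 1.98% of all genes) and none lost, with median steps of 0.54 in the KO-labelled library and 0.35 in Control. The 3 were Tfrc, the transferrin receptor, Fth1, the ferritin heavy chain, and Glrx5, an iron-sulfur cluster factor. Tfrc had 240 CPM in Hba-a2 against 64.1 in Car1 in the KO-labelled library (3.75-fold, 3.56 to 3.95) and 246 against 70.9 CPM in Control (3.47-fold, 3.30 to 3.64). Fth1 had 4213 against 1423 CPM in the KO-labelled library and 4218 against 1792 CPM in Control. Both genes thus reached almost the same level in Hba-a2 of either library. Ncoa4, the receptor that delivers ferritin for breakdown, had steps of -0.74 and -0.79.

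Genes of the red cell membrane and blood groups gave 9 calls. Of 19 measured members, 9 were gained in both libraries (47.4%, against 1.98% of all genes) and none lost, with median steps of 1.44 in the KO-labelled library and 0.86 in Control. Cldn13, a claudin of mouse erythroid cells (chr5:134914249-134915526, minus strand), had 327 CPM in Hba-a2 against 24.3 in Car1 in the KO-labelled library (13.5-fold, 12.6 to 14.4) and 229 against 29.6 CPM in Control (7.75-fold, 7.26 to 8.27). Rhd (chr4:134864536-134896172, plus strand) had 384 against 36.2 CPM in the KO-labelled library (10.6-fold, 10.0 to 11.2) and 269 against 54.6 CPM in Control (4.92-fold, 4.67 to 5.18). Both were lower in KO-labelled than in Control Car1 and higher in KO-labelled than in Control Hba-a2. The order in Car1 turned without other-lineage cells, with 46.5 CPM of Cldn13 and 68.3 CPM of Rhd in KO-labelled Car1, against 34.1 and 63.1 CPM in Control Car1. Both genes are on the erythroid list that decides which cells are left out, so this turn is set in part by that choice. Rhag, which forms the Rhesus complex with Rhd, had steps of 2.23 and 1.88. Add2, the beta adducin of the membrane skeleton, had 2.47 and 1.90, the spectrin gene Sptb 2.26 and 1.66, and the ankyrin gene Ank1 2.38 and 1.44. Cd59a, which shields cells from complement, had steps of -0.81 and -0.70. Leaving out other-lineage cells, the medians of the list came to 0.98 in the KO-labelled library and 0.85 in Control.

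**Figure D3:**
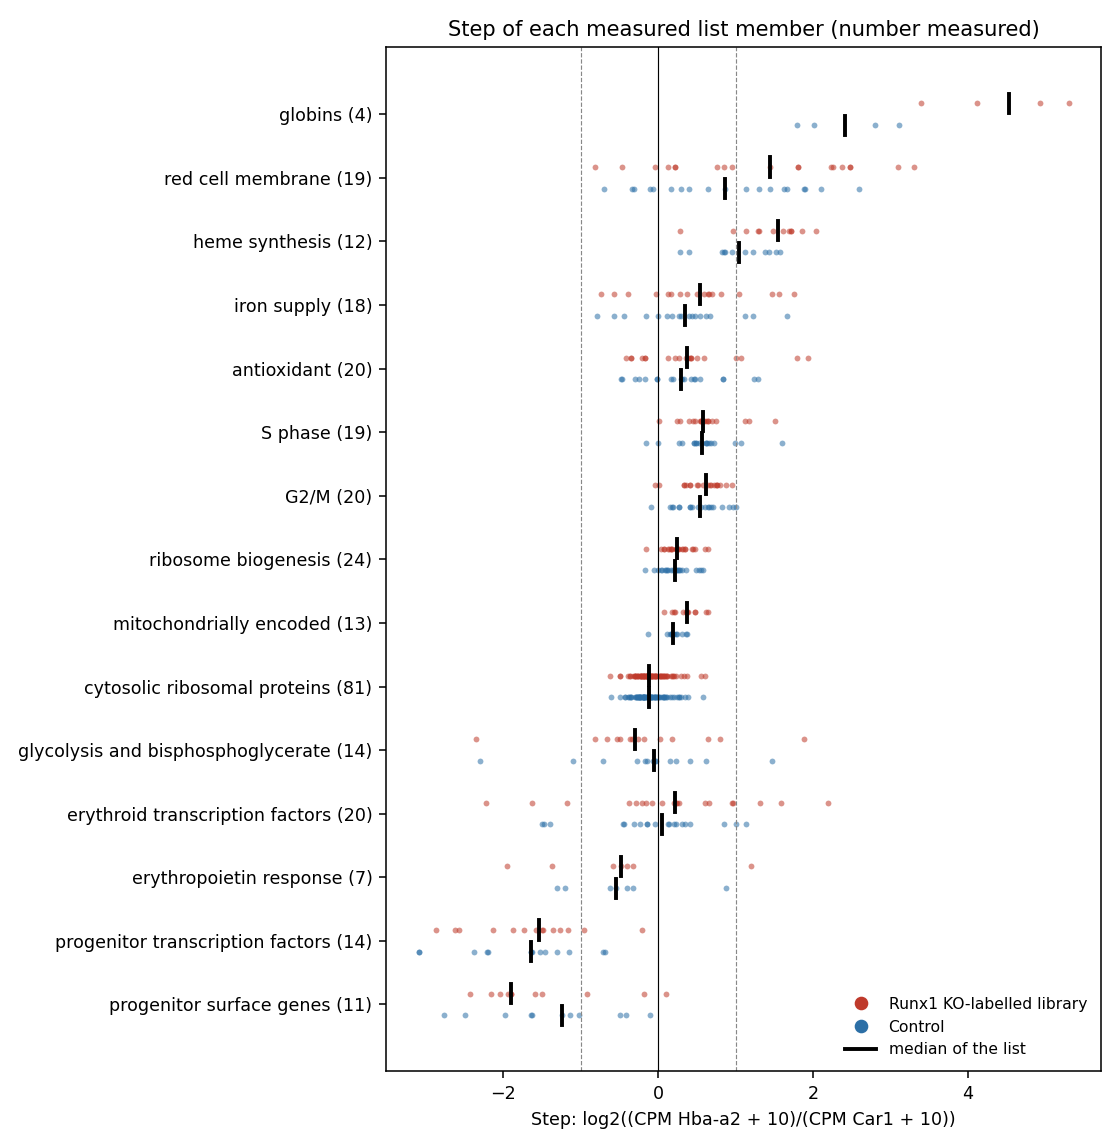
Step of each measured member of 15 gene lists, with the KO-labelled library (red) above Control (blue) in each row, black bars at the medians and dashed lines at 2-fold. Globin, membrane and heme genes stand on the right, ribosomal protein genes near 0 (median -0.12 in each library), and progenitor transcription factors and surface genes on the left.

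The other most gained genes were Hebp1, Ctse, C1qtnf12, Tmem56, Paqr9 and Nxpe2. Hebp1, a heme-binding protein gene (chr6:135137522-135198022, minus strand), had 239 CPM in Hba-a2 against 13.1 in Car1 in the KO-labelled library (18.3-fold, 16.8 to 19.9) and 190 against 30.3 CPM in Control (6.28-fold, 5.88 to 6.72). Ctse, the aspartic protease cathepsin E (chr1:131638306-131675505, plus strand), had 278 against 23.8 CPM in the KO-labelled library and 248 against 35.2 CPM in Control. Tmem56 had 46.5 against 0.663 CPM in the KO-labelled library and 70.3 against 5.99 CPM in Control, and Paqr9 60.6 against 1.99 CPM and 87.4 against 13.8 CPM. C1qtnf12 had steps of 2.78 and 2.20, and Nxpe2 2.45 and 2.07. Tmem56 and Paqr9 were at a few CPM or less in KO-labelled Car1 cells, lower than in Control, and stayed lower than Control in Hba-a2.

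The genes that name the classes behaved unlike each other. Car1 itself was gained in the KO-labelled library, with 716 CPM in Hba-a2 against 261 CPM in Car1 (2.74-fold, 2.66 to 2.82), and had 3414 against 2034 CPM in Control (1.68-fold, 1.66 to 1.70). It was lower in the KO-labelled library in both classes, by 2.24 in Hba-a2 and by 2.91 in Car1 on the log2 scale. Without other-lineage cells its step was 0.53 in both libraries, and as it is on the erythroid list, that value is set in part by the choice of cells. Car2, the other erythroid carbonic anhydrase, had 3029 against 568 CPM in the KO-labelled library (5.34-fold, 5.25 to 5.42) and 3383 against 1106 CPM in Control (3.06-fold, 3.02 to 3.10). Car2 thus reached similar levels in Hba-a2 where Car1 did not.

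Erythroid transcription factors had small steps as a group. Of 20 measured members, 2 were gained (10%, against 1.98% of all genes) and 3 lost (15%, against 6.02%) in both libraries, with median steps of 0.22 in the KO-labelled library and 0.05 in Control. Gata1 had 136 CPM in Hba-a2 against 117 in Car1 in the KO-labelled library and 128 against 115 CPM in Control. Klf1 had 327 against 102 CPM (step 1.58) in the KO-labelled library and 332 against 180 CPM (0.85) in Control. Nfia and E2f4, a cell cycle regulator, were the 2 gained in both. Nfia had 119 against 18.3 CPM (6.52-fold, 5.98 to 7.10) in the KO-labelled library and 147 against 61.7 CPM (2.38-fold, 2.25 to 2.53) in Control. The 3 lost were Cited2, a transcription cofactor, Cbfa2t3, a corepressor of the ETO family, and Nfe2, a factor of platelet and globin genes. Cited2 had steps of -2.22 and -1.39, Cbfa2t3 -1.63 and -1.50, and Nfe2 -1.17 and -1.48. Without other-lineage cells none of 19 was gained in both, as Nfia had a step of 0.98 in Control, and 2 were lost. Of all genes, 1.71% were then gained and 4.9% lost in both.

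Transcription factors of the progenitor state were lost. Of 14 measured members of 22, 11 were lost in both libraries (78.6%, against 6.02% of all genes) and none gained, with median steps of -1.54 in the KO-labelled library and -1.64 in Control. Gata2 (chr6:88193891-88207032, plus strand) had 20.7 CPM in Hba-a2 against 179 in Car1 in the KO-labelled library, 8.62-fold lower (7.55 to 9.88), and 19.8 against 244 CPM in Control, 12.3-fold lower (10.9 to 14.0). Meis1 (chr11:18879817-19018985, minus strand), a homeobox factor, had 14.0 against 166 CPM in the KO-labelled library, 11.8-fold lower (10.1 to 13.9), and 1.64 against 89.4 CPM in Control, 54.4-fold lower (35.9 to 86.9). In Hba-a2, Gata2 had nearly the same level in both libraries, and Meis1 was higher in the KO-labelled one. Fli1, a megakaryocyte and progenitor factor, had steps of -2.57 and -2.37, and Ikzf2, of the Ikaros family, -2.14 and -2.21. Myb, a regulator of progenitor division, had 221 against 510 CPM in the KO-labelled library and 281 against 710 CPM in Control. Without other-lineage cells 10 of 13 were lost in both, against 4.9% of all genes.

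Surface genes of progenitors followed. Of 11 measured members, 7 were lost in both libraries (63.6%, against 6.02% of all genes) and none gained, with median steps of -1.89 in the KO-labelled library and -1.25 in Control. Without other-lineage cells 7 of 9 were lost in both, against 4.9% of all genes. The medians of these 9 were then -1.34 and -1.56, with the libraries in the other order, though over fewer genes than the 11 above. Cd9, a tetraspanin, had 22.0 CPM in Hba-a2 against 133 in Car1 in the KO-labelled library and 4.11 against 86.2 CPM in Control. Cd63, another tetraspanin, had 6.98 against 81.8 CPM in the KO-labelled library and 28.6 against 142 CPM in Control. Cd48 had steps of -2.04 and -1.65, and the adhesion receptor Adgrg1 -1.89 and -2.49. Kit, the receptor used to sort the cells, had 75.8 against 152 CPM in the KO-labelled library and 80.3 against 174 CPM in Control.

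Among the most lost genes were Ctla2a, Apoe and Vim. Ctla2a, a cathepsin inhibitor (chr13:60934155-60936625, minus strand), had 37.3 CPM in Hba-a2 against 541 in Car1 in the KO-labelled library, 14.5-fold lower (13.2 to 16.0), and 4.93 against 365 CPM in Control, 74.0-fold lower (58.2 to 95.8). Apoe, apolipoprotein E (chr7:19696109-19699188, minus strand), had 257 against 3784 CPM in the KO-labelled library, 14.7-fold lower (14.2 to 15.3), and 84.9 against 1710 CPM in Control, 20.1-fold lower (19.0 to 21.4). Vim, the intermediate filament vimentin (chr2:13573927-13582826, plus strand), had 18.3 against 231 CPM in the KO-labelled library, 12.6-fold lower (10.99 to 14.6), and 13.4 against 402 CPM in Control, 30.1-fold lower (26.0 to 35.1). Ctla2a and Apoe were higher in the KO-labelled library in both classes, and Vim was lower there in Car1 alone. Without other-lineage cells Ctla2a had 320 CPM in KO-labelled and 333 CPM in Control Car1, so it was not higher there. Apoe stayed higher in both classes, and Vim was then lower in Hba-a2 as well (11.2 against 12.8 CPM).

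Mef2c, a transcription factor gene, had 16.2 CPM in Hba-a2 against 176 in Car1 in the KO-labelled library and 8.67 against 174 CPM in Control. Its steps were -2.82 in the KO-labelled library and -3.30 in Control, and -1.61 and -2.72 without other-lineage cells, so its loss was smaller without those cells. Plac8 held its loss, at -2.98 and -3.32, and at -3.55 and -3.48 without those cells. Gmfg, an actin-branch regulator, had steps of -3.39 and -3.77, Muc13, a cell surface mucin, -2.95 and -3.09, and Ptprcap, a partner of CD45, -3.00 and -2.71.

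Signalling genes downstream of erythropoietin did not follow its receptor. Epor had 136 CPM in Hba-a2 against 53.9 CPM in Car1 (2.52-fold, 2.37 to 2.69) in the KO-labelled library and 118 against 59.5 CPM (1.98-fold, 1.86 to 2.11) in Control. Of 7 measured members of the list, none was gained and 2 were lost in both (28.6%, against 6.02% of all genes), Pim1 and Lyn. Pim1, a kinase gene switched on by STAT5, had 49.8 against 221 CPM in the KO-labelled library and 18.5 against 55.6 CPM in Control, and Lyn, a Src family kinase, had steps of -1.37 and -1.30. Stat5a had steps of -0.59 and -0.54, and the median of the list was -0.48 in the KO-labelled library and -0.54 in Control.

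Division genes had positive median steps in both libraries, and the libraries were closer with all cells than without other-lineage cells. The 19 S phase genes had a median step of 0.58 in the KO-labelled library and 0.57 in Control, with 2 gained in both (10.5%, against 1.98% of all genes), Rrm2 and Cdc6. Rrm2, a subunit of ribonucleotide reductase, had 241 CPM in Hba-a2 against 78.2 in Car1 in the KO-labelled library (3.08-fold, 2.93 to 3.23) and 236 against 71.3 CPM in Control (3.31-fold, 3.15 to 3.47). The 20 G2/M genes had medians of 0.61 and 0.54 and none was gained in both. Birc5, survivin, had steps of 0.96 and 1.00. Among the G1 cyclins and inhibitors the direction differed by gene: Ccne1, cyclin E1, had steps of 2.37 and 2.07, and Ccnd2, cyclin D2, -1.50 and -1.84. Cdk6, the partner of D cyclins, had 273 against 787 CPM in the KO-labelled library and 274 against 653 CPM in Control, and Btg1, an inhibitor of division, steps of -1.76 and -1.55. Without other-lineage cells the S phase medians were 0.85 and 0.59, with the step larger in the KO-labelled library for 19 of 19 genes, against 10 of 19 with them. Those of G2/M were then 0.73 and 0.56, with the step larger in the KO-labelled library for 17 of 20 genes, against 11 of 20 with those cells.

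Few genes of oxidant defence, protein turnover, cell death and chromatin were called in both libraries. The share lost among chromatin genes was near that of all genes. Of 20 measured antioxidant genes, 2 were gained in both libraries (10%, against 1.98% of all genes), Blvrb, biliverdin reductase B, with steps of 1.94 and 1.23, and Prdx2, peroxiredoxin 2, with 1.80 and 1.29. Of 11 ubiquitin and proteasome genes, Ubac1 was gained in both (9.09%, against 1.98% of all genes). It had 180 against 36.5 CPM in the KO-labelled library and 162 against 50.02 CPM in Control. Of 8 Bcl2 family genes, Bcl2 was lost (12.5%, against 6.02% of all genes), with 8.26 against 58.1 CPM in the KO-labelled library and 4.56 against 50.1 CPM in Control, and none was gained. None of 10 autophagy and mitophagy genes was called in either library. Bnip3l, which marks mitochondria for removal, had steps of -0.59 and -0.45, and Pink1 -0.75 and -0.71. Of 16 genes of chromatin condensation and enucleation, Lmna, lamin A, was gained (6.25%, against 1.98% of all genes), with steps of 1.62 and 2.07. Rac2, a small GTPase, was lost (6.25%, against 6.02% of all genes), with steps of -1.14 and -1.32. Of 4 genes of globin translation and folding partners none was called, and their medians were 0.43 in the KO-labelled library and 0.41 in Control.

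Ribosome, histone and glycolysis genes were close to the median of all genes. The 81 measured cytosolic ribosomal protein genes had a median step of -0.12 in each library and no call, with a range of -0.62 to 0.61 in the KO-labelled library and -0.60 to 0.58 in Control. The 24 ribosome biogenesis genes had medians of 0.25 and 0.21 and no call, with Ncl, nucleolin, at 0.65 and 0.53. The 13 mitochondrially encoded genes had medians of 0.38 in the KO-labelled library and 0.19 in Control, and for each of the 13 the step was larger in the KO-labelled library, where more Hba-a2 cells had at least 10% mitochondrial UMIs. The 10 measured histone genes had medians of 0.27 and 0.30. Of 14 glycolysis genes, Pklr, the pyruvate kinase of red cells, was gained (7.14%, against 1.98% of all genes), with 60.1 against 9.03 CPM in the KO-labelled library and 66.3 against 17.4 CPM in Control. Pkm, the kinase of other tissues, was lost (7.14%, against 6.02% of all genes), with 23.7 against 162 CPM in the KO-labelled library and 10.1 against 89.0 CPM in Control.

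Levels inside Car1 were compared between cells under and over the median share of heme synthesis UMIs in their library. These are ranges of 1 score and not cell types, and 300 KO-labelled cells under and 214 over lay within 10% of the median, and 198 and 157 in Control. Heme genes are left out of what follows. The same shares over all measured genes were not counted, so the counts below have no background beside them. Of 95 other genes gained in both libraries, 89 were higher over the median than under it in the KO-labelled library and 93 in Control, with median log2 ratios of 0.55 and 0.88. Of the 307 lost genes, 293 were lower over the median in the KO-labelled library and 304 in Control, with medians of -0.44 and -0.84. Between those upper Car1 cells and Hba-a2 the medians were 1.49 and 1.18 for gained genes and -1.42 and -1.16 for lost ones. Upper cells were deeper than lower ones, with median UMIs of 13535.5 under and 15602 over the median in the KO-labelled library and 12328 under and 21759 over it in Control. The part of depth in this was not tested. The parts also differed in lineage mix, as other-lineage cells made up 69.6% of lower and 34.3% of upper Car1 cells in the KO-labelled library and 24.3% and 11.1% in Control. Without them, and with the same division of Car1, 93 of the 95 gained genes were higher in upper cells in each library, with medians of 0.64 in the KO-labelled library and 0.89 in Control. Lost genes were then lower in upper cells in 303 and 304 of 307, with medians of -0.59 and -0.89.

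Single genes showed several courses over these stages. Cldn13 had 1.42, 43.1 and 327 CPM in lower Car1, upper Car1 and Hba-a2 of the KO-labelled library, and 2.17, 44.2 and 229 CPM in Control. Epor had 34.8, 69.6 and 136 CPM in the KO-labelled library and 38.7, 70.6 and 118 CPM in Control, a climb spread over the stages. Apoe had 3976, 3626 and 257 CPM in the KO-labelled library and 2559, 1257 and 84.9 CPM in Control. Without other-lineage cells Apoe had 5856, 3732 and 253 CPM in the KO-labelled library, so its near-level course inside Car1 there was not seen without those cells. Gata2 had 217, 148 and 20.7 CPM in the KO-labelled library and 415, 153 and 19.8 CPM in Control, so the libraries differed in the lower Car1 cells and little after. Klf1 had 50.1, 145 and 327 CPM in the KO-labelled library and 117, 214 and 332 CPM in Control, and likewise differed most in the lower Car1 cells. Without other-lineage cells the lower Car1 level of Klf1 was 123 CPM in the KO-labelled library and 145 CPM in Control, and that of Gata2 285 and 426 CPM. Klf1 is on the erythroid list, so its level there is set in part by which cells are left out.

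**Figure D4:**
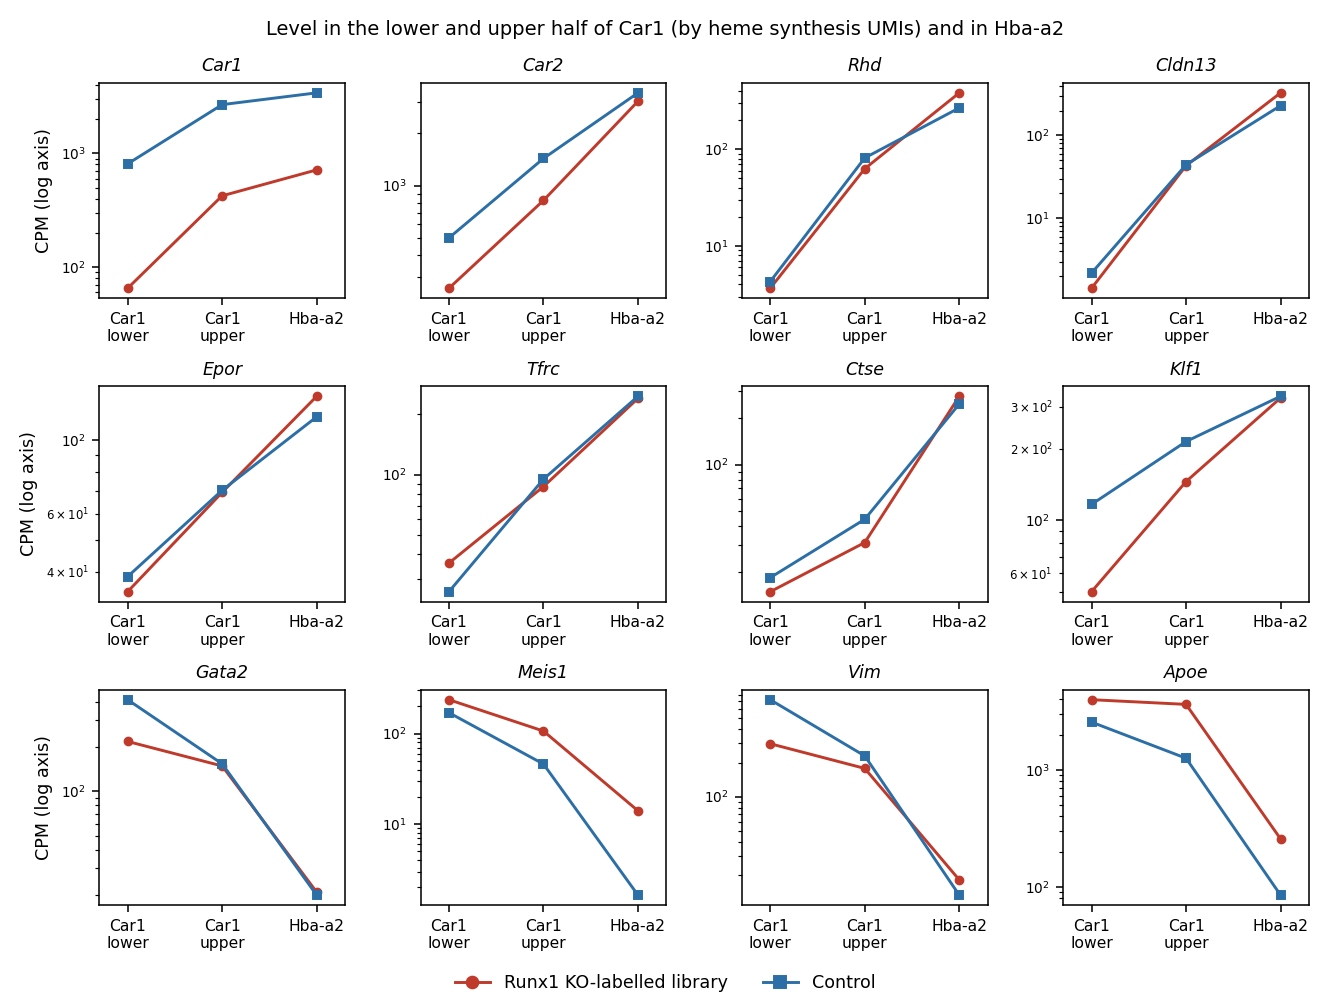
Levels of 12 genes in CPM (logarithmic axes) in lower Car1 cells, upper Car1 cells and Hba-a2 cells, with the KO-labelled library as red circles and Control as blue squares; each point is 1 sum of cells without replicate. The upper 8 genes climb over the stages and the 4 in the bottom row decline; Car1 stays lower in the KO-labelled library throughout, and Gata2 and Klf1 differ between the libraries mainly in lower Car1 cells, which for Klf1 is less so without other-lineage cells (123 and 145 CPM).

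The gained genes as a whole had larger steps in the KO-labelled library, in 87 of 101, against 52.7% of all measured genes. Their median step was 1.76 in the KO-labelled library and 1.44 in Control. This came with lower levels in KO-labelled Car1 cells: the median log2 ratio of KO-labelled over Control was 0.06 in Hba-a2 and -0.31 in Car1, and over all genes it was -0.02 in Car1. Leaving out other-lineage cells, the steps of the same 101 genes had medians of 1.46 in the KO-labelled library and 1.34 in Control, with 78 larger in the KO-labelled library, against 60.5% of all genes. The ratio in Car1 was then -0.13. Lost genes had medians of -1.63 in the KO-labelled library and -1.55 in Control. Of these 307, 266 were measured without other-lineage cells, with medians of -1.46 in the KO-labelled library and -1.49 in Control. The medians of these 266 with all cells were not taken, so no turn of the order is read from this.

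**Figure D5:**
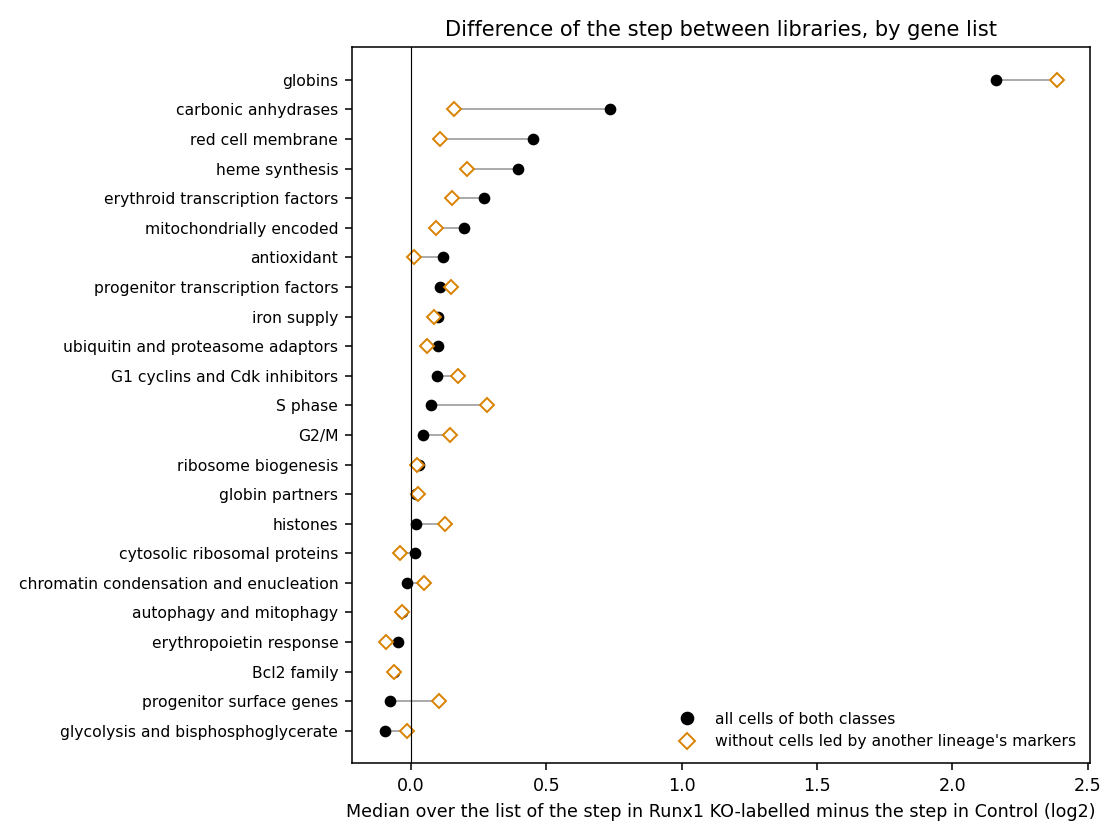
Median over each of 23 gene lists of the step in the KO-labelled library minus the step in Control (horizontal axis, log2), for all cells (black circles) and without cells led by another lineage's markers (open diamonds). The globin difference is 2.16 with all cells and 2.39 without those cells, while the membrane difference is 0.45 and 0.11 and the heme difference 0.40 and 0.21.

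The step was at least 2-fold higher in the KO-labelled library for 38 genes (0.745%) and at least 2-fold lower for 11 (0.216%). With 10 CPM added, the libraries differed more in Car1 than in Hba-a2 for 24 of the 38 and all 11. On the CPM themselves, given below, this did not hold for Treml1 and Esam, so these counts rest in part on the added 10 CPM. The share over all measured genes was not counted. With other-lineage cells left out, the counts were 21 (0.423%) and 6 (0.121%), with 19 of the 38 and 2 of the 11 among them. The 38 included all 4 globin genes, granule genes of neutrophils, and genes lost by less in the KO-labelled library, such as Ifitm1, Lgals1 and Scin, whose Car1 level was lower there.

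Ifitm1, an interferon-induced membrane protein gene (chr7:140967221-140969825, plus strand), had the largest difference with 10 CPM added, with 3.67 CPM in Hba-a2 against 30.6 in Car1 in the KO-labelled library and 16.7 against 515 CPM in Control. Lgals1, galectin 1 (chr15:78926725-78930465, plus strand), had 12.5 against 51.6 CPM in the KO-labelled library and 33.0 against 423 CPM in Control. Scin, the actin-severing protein scinderin (chr12:40059769-40134228, minus strand), had 0.0918 CPM (1 UMI) against 0.765 CPM in the KO-labelled library, 8.33-fold lower with an interval of 1.41 to 338, and 0.822 against 38.0 CPM in Control. All 3 were lost at least 2-fold in Control and were lower in KO-labelled than in Control Car1. Without other-lineage cells the differences were 3.18, 1.61 and 1.94 on the log2 scale, against 2.72, 1.88 and 2.06 with them. With 1 CPM added in place of 10, the difference of Ifitm1 was 2.10 and those of Scin, Pf4 and Camp were larger, at 3.73, 3.69 and 3.51.

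Pf4, the platelet factor that marks megakaryocytes (chr5:90772435-90773383, plus strand), had 42.4 CPM in Hba-a2 against 102 in Car1 in the KO-labelled library and 4.03 against 153 CPM in Control. Without other-lineage cells it had 28.3 against 35.5 CPM and 4.06 against 15.5 CPM, and the difference of the steps was 0.61 in place of 2.44. Camp, the neutrophil granule peptide cathelicidin (chr9:109847379-109849617, minus strand), had 103 against 11.7 CPM in the KO-labelled library and 2.02 against 3.18 CPM in Control. Without other-lineage cells it had 8.998 against 11.5 CPM in the KO-labelled library, and its step there was -0.18 in place of 2.38. Pf4 and Camp are themselves on the marker lists used to leave cells out, so these changes are set in part by that choice. The granule genes S100a8, S100a9, Camp, Ngp, Lcn2 and Ltf summed to 875 CPM in KO-labelled Hba-a2 against 147 CPM in Car1, and 5% of the Hba-a2 cells held 92.5% of these UMIs.

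Dlk1, a Notch-related membrane protein gene (chr12:109452823-109463336, plus strand), had 3.03 CPM in Hba-a2 against 35.1 CPM in Car1 in the KO-labelled library, 11.6-fold lower (8.21 to 16.9). In Control it had 0 UMIs in Hba-a2, which allows up to 0.224 CPM, and 0.111 CPM in Car1, so no step could be read there. Treml1 (chr17:48359916-48367176, plus strand), Esam (chr9:37528078-37538319, plus strand) and Fam189b (chr3:89183143-89189295, plus strand) were likewise higher in KO-labelled Car1. Treml1, a receptor of platelets, had 20.1 against 164 CPM in the KO-labelled library and 0.523 against 17.02 CPM in Control, and Fam189b 12.7 against 163 CPM and 3.14 against 34.8 CPM. Esam, an adhesion molecule of megakaryocytes and endothelium, had 3.40 against 31.2 CPM in the KO-labelled library and 0.149 CPM (2 UMIs) against 3.14 CPM in Control. Csf2rb, the shared receptor chain of interleukin 3 and its kin, had 3.95 against 32.0 CPM and 0.598 against 4.87 CPM, and Gadd45g, a stress response gene, 14.2 against 65.2 CPM and 5.08 against 10.5 CPM. On the CPM themselves, without the added 10, the losses of Csf2rb were 8.10-fold and 8.15-fold, those of Treml1 8.17-fold and 32.5-fold, and those of Fam189b 12.9-fold and 11.1-fold. Those of Esam were 9.18-fold (6.63 to 13.1) and 20.99-fold (5.71 to 175). For Treml1, Esam and Csf2rb the lower step in the KO-labelled library thus rests on the added 10 CPM. For Fam189b the direction held without it but the 2-fold size did not, and its difference lay between -1.31 and -0.38 over the settings. Without other-lineage cells, KO-labelled Car1 had 5.57 CPM of Dlk1, 6.56 of Esam, 10.4 of Csf2rb and 67.0 of Treml1. The differences of the steps were then -0.36, -0.21, -0.29 and -0.95 in that order, -0.90 for Fam189b and -0.71 for Gadd45g. Treml1 is on the megakaryocyte list used to leave cells out, so its change is set in part by that choice.

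St3gal6, a sialyltransferase gene (chr16:58468125-58524243, minus strand), was among the 11 and was gained in Control only. It had 71.8 CPM in Hba-a2 against 47.3 in Car1 in the KO-labelled library (1.52-fold, 1.40 to 1.64) and 28.9 against 2.80 CPM in Control (10.3-fold, 8.41 to 12.7). Clca3a1, a gene of the chloride channel accessory family (chr3:144729677-144760977, minus strand), ran opposite ways, with 41.6 against 107 CPM in the KO-labelled library and 13.1 against 7.79 CPM in Control. Both genes were higher in the KO-labelled library in both classes.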

How the data were processed

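Single-cell RNA was measured with a 3′ kit (10x Genomics, version 3, per the labels) in 1 library labelled Runx1 KO and 1 Control library. The deposited matrix holds counts, which are UMIs per gene and cell, and Cell Ranger and mm10 are named in the submitters' processing notes without versions. The deposited cell annotation also gives UMI and gene counts per cell, the fraction of mitochondrial UMIs and, as a ratio, a size factor (not used here), together with the authors' library name and cell class. Symbols come from the deposited gene table, and 31011 of 31053 identifiers (99.9%) matched GENCODE M21 on GRCm38, the source of gene positions.

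UMIs were summed per class and library, scaled to CPM and compared as log2 ratios with 10 CPM added. Intervals of 95% are exact: conditional binomial for ratios of UMIs, Clopper-Pearson for shares. A count of 0 allows up to 3 counts of the total. No cell was filtered and no doublet caller was run; leaving out the 5% of cells with most UMIs was 1 of 10 other settings tried, and 2 more were added after seeing the data. The procedure was tested on simulated data.

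Genes were named by rank: the 12 highest and 12 lowest mean steps, the 8 highest and 8 lowest differences of the steps, and up to 4 members of each list with the largest mean step in size. Genes named beside these (Gata1, Klf1, Kit, Myb, Alas2, Runx1, marker genes and others) were chosen after their values were seen. Some genes that these ranks name are not reported here. The classes, genes and lists were chosen with earlier results of these data known. Python 3.11.15, numpy 2.4.6, scipy 1.17.1, pandas 2.3.3 and matplotlib 3.10.9 were used.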

Additional observations from a re-analysis of the deposited data

Results flagged for a closer look

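Clca3a1 stood out because its step ran in opposite directions in the libraries. It was 2.57-fold lower in Hba-a2 than in Car1 in the KO-labelled library (2.33 to 2.83) and 1.68-fold higher in Control (1.39 to 2.02), and the difference of the log2 steps was -1.55. The difference was not tested, since each genotype had 1 library. Over the alternatives it lay between -2.02 and -1.50.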

How the results depend on the processing

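The number of genes gained in both libraries (101) was 158 with 1 CPM added, 158 with median-of-ratios scaling, 163 with the mean of per-cell CPM and 172 with cells thinned to 5000 UMIs. The 307 lost genes numbered 180 against the upper Car1 cells alone, 179 of them the same genes. The 38 steps higher in the KO-labelled library numbered 77 with 1 CPM added and 21 without other-lineage cells. The 11 lower steps numbered 17 without the 5% of cells with most UMIs and 6 without other-lineage cells, where the share of Hba-a2 cells was 17.6% in the KO-labelled library and 13.8% in Control. Among values of at least 2-fold, signs turned for the Treml1 difference (0.60 with 1 CPM added), for Camp without other-lineage cells (step -0.18 in the KO-labelled library, difference -0.026) and for the carbonic anhydrase medians with no CPM minimum (-0.053 in the KO-labelled library, -0.048 in Control), where more genes of the list entered; otherwise the cause was not tested. Camp is itself on the neutrophil list used to leave cells out, so its turn is set in part by that choice. Among values under 2-fold, 54 of 97 single-gene differences and 11 of 35 list medians changed sign in at least 1 setting, and none of 89 single-gene steps. Median-of-ratios scaling shifted the median step of all genes to 0.15 in the KO-labelled library and 0.19 in Control. Of the other values, for single genes and lists, 2904 moved by less than their counting interval or limit and 1491 by more. No paired analysis was possible because each genotype had 1 library. Depth limits genes near 0.275 CPM in KO-labelled Hba-a2 and 0.224 CPM in Control Hba-a2, the levels of 3 UMIs.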
